A study of Homo sapiens with 4 samples.

Results

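The genes described are 9 members of the MHC class I pathway: the heavy chain genes HLA-B, HLA-C, HLA-E and HLA-F, the light chain gene B2M, the peptide transporter genes TAP1 and TAP2, the loading factor gene TAPBP, and the transactivator gene NLRC5. They are a fixed list, found by symbol in 9 of 25411 gene rows. The rule uses no measured value, but the list was chosen with earlier results of these data known. The cells were BEAS-2B, a widely used immortalised human line from bronchial epithelium. There were 2 control libraries grown for 72 h without added metal and 2 libraries grown for 72 h with 5 µM CdCl2, cadmium chloride, a soluble salt of a toxic metal. Both controls are labelled experiment 1 and both cadmium libraries experiment 2, so the 2 labels fully overlap and their effects cannot be told apart. Whether libraries of a group were separate cultures is not stated, and p-values therefore reflect only how these libraries vary, possibly for technical reasons.

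Class I molecules show fragments of a cell's own proteins at its surface, where CD8 T cells and natural killer cells inspect them. The proteasome cuts proteins into peptides, TAP1 and TAP2 carry the peptides into the endoplasmic reticulum, and tapasin, the TAPBP product, holds the empty heavy chain and B2M close to the transporter until a peptide binds. Nearly all nucleated cells keep this pathway on, bronchial epithelium included. Interferons raise it through factors that include the interferon regulatory factors (IRFs), and NLRC5 drives the heavy chain promoters.

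The promoters show which transcription factor words the members have in common. RefSeq start sites on GRCh38.p14 were found for 7 of the 9 members, and the 200 bases before the start of 5 of them are printed here 5' to 3' on the gene's strand, to let the 3 heavy chain promoters be compared with each other and with those of the light chain and the transporter. Capitals mark matches, on either strand, to 5 words: AANNGAAA (the core bound by IRFs), GAAANNGAA (as in the interferon-stimulated response element), GGANTNNCC (resembling an NF-kappaB site), TGACG (as in cyclic AMP response elements) and CCAAT (the NF-Y box). The words were chosen with these sequences in view, and the first and second can overlap. The windows are chr6:31357180-31357379 (minus strand) for HLA-B, chr6:31272093-31272292 (minus strand) for HLA-C, chr6:29723234-29723433 (plus strand) for HLA-F, chr15:44711317-44711516 (plus strand) for B2M and chr6:32853705-32853904 (minus strand) for TAP1.
HLA-B: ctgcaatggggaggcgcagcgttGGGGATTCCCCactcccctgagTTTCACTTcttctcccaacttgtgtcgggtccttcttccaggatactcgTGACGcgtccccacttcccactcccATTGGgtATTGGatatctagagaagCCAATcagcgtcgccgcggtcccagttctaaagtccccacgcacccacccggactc
HLA-C: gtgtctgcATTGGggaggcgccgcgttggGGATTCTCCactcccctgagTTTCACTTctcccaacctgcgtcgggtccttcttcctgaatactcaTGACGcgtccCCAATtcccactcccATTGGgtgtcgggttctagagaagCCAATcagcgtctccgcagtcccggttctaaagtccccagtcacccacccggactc
HLA-F: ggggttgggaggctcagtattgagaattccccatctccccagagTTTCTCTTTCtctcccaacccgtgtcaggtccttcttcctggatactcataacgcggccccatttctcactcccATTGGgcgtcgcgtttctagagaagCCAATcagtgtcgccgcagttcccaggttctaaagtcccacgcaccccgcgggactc
B2M: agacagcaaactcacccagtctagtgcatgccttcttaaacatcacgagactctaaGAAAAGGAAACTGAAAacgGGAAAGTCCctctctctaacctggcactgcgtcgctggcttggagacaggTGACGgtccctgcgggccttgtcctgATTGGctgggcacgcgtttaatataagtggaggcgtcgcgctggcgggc
TAP1: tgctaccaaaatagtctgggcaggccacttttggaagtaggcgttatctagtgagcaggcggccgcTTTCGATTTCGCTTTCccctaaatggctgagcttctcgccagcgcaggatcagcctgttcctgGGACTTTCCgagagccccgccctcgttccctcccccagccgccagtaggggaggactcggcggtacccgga

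The heavy chain windows were close copies of each other, with 87.7% identical positions in the alignment of HLA-B with HLA-C, 80.8% for HLA-B with HLA-F and 80.2% for HLA-C with HLA-F. The other pairs among the 7 windows had between 45.6% and 53.4%. Over the full RefSeq windows of 250 bases before to 50 after the start, AANNGAAA was found in 7 of 7 members and in 23.2% of 27305 promoters. GAAANNGAA was found in 5 of 7 members, all but HLA-B and HLA-C, and in 8.32% of promoters. Among 25 interferon-stimulated genes in the table, 22 (88.0%) held the IRF core and 19 held GAAANNGAA. GGANTNNCC was found in 5 of 7 members and 14.1% of promoters, TGACG in 4 of 7 and 25.0%, and CCAAT in 5 of 7 and 35.7%. These are letter matches and were not tested as binding sites.

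None of the 9 members passed the test for a change with cadmium, in either direction. The fit was edgeR's quasi-likelihood test on read counts, with Benjamini-Hochberg adjustment over 13663 tested genes and a threshold of 0.05. It called 0 of 9 members, while 2255 of all 13663 genes passed (16.5%), 1209 higher with cadmium (8.85%) and 1046 lower (7.66%). At an unadjusted p under 0.05 there was 1 member of 9 (HLA-C), against 4642 of the 13663 tested genes. DESeq2 and limma-voom also called 0 of 9, against 13.5% and 19.0% of all tested genes. Among the 6472 tested genes with a mean level at least that of the lowest member, 1314 passed (20.3%). The median log2 fold change was -0.09 over the members and 0.0019 over all tested genes. The median absolute log2 fold change was 0.09 for the members and 0.23 for all tested genes. The latter include genes of lower level than any member, and the comparison was not matched for level.

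Total counts were 26529403 and 8609243 reads in the control libraries and 29937242 and 15537382 in the cadmium libraries. Each member had at least 306 reads in each library. Libraries of 1 group differed by more than sampling noise. The line expressed the epithelial keratins KRT7, KRT8 and KRT18, with KRT5 and KRT19 at no more than 7 reads in any library, CDH1 at 1 to 28 and EPCAM at 20 to 182. The leukocyte genes CD3E and LYZ and the endothelial gene PECAM1 had 0 reads in all 4 libraries, and PTPRC had at most 2. Other leukocyte markers were present, CD14 at 96 to 344 reads and CD68 at 443 to 2554. The fibroblast genes COL3A1 and DCN had 0 reads in all 4, while COL1A1 was abundant, at 29784 to 113999 reads, and PDGFRB had 1554 to 5717. Of the markers of these cell types, KRT7 fell by 1.02 on the log2 scale with cadmium (edgeR adjusted p = 0.00234). EPCAM, CD68 and TIE1 rose by 1.36, 0.59 and 1.68, the last at 6 to 101 reads (edgeR adjusted p = 0.0131, 0.00857 and 0.0160). The other tested markers, KRT8, KRT18, CDH1, CD14, COL1A1, COL1A2 and PDGFRB, did not pass. Over all tested genes 16.5% passed. The nuclear-retained RNAs MALAT1 and NEAT1, used as a sign of RNA quality, rose by 0.87 and 0.59 on the log2 scale with cadmium (edgeR adjusted p = 0.00188 and 0.0228). Their part in the results was not tested. In bulk RNA, fewer expressing cells and less RNA per cell cannot be told apart.

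Per length of transcript, the classical heavy chains and the light chain were far above the rest of the pathway. Levels between genes are given in RPKM, which scales reads by transcript length and sequencing depth, as deposited. HLA-C was the highest member, at 682 ± 35.5 RPKM in control (SD, n = 2) and 597 ± 64.4 with cadmium, which placed it at the 99.7th percentile of control genes with reads. B2M followed at 545 ± 52.8 and 504 ± 45.5 RPKM. HLA-B came next at 480 ± 88.8 and 419 ± 61.8 RPKM, and its control libraries overlapped those of B2M, so this pair is not separated in control.

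HLA-E, the nonclassical chain that presents leader peptides to NK receptors, stood at 99.3 ± 9.85 RPKM in control and 105 ± 11.0 with cadmium. TAPBP was at 58.6 RPKM in both control libraries and at 63.5 ± 6.82 with cadmium. TAP1 (39.1 ± 3.78 and 38.7 ± 2.43 RPKM) and TAP2 (35.8 ± 1.39 and 32.3 ± 1.31 RPKM) overlapped in control and not with cadmium. HLA-F, a nonclassical chain that can reach the surface without peptide, was at 22.9 ± 2.46 and 22.7 ± 6.66 RPKM. NLRC5 was the lowest, at 4.77 ± 0.045 and 4.58 ± 0.029 RPKM, near the middle of genes with reads (percentile 50.5 in control). The order of the 9 was the same in both groups, and HLA-C exceeded NLRC5 143-fold in control and 130-fold with cadmium.

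**Figure D1:**
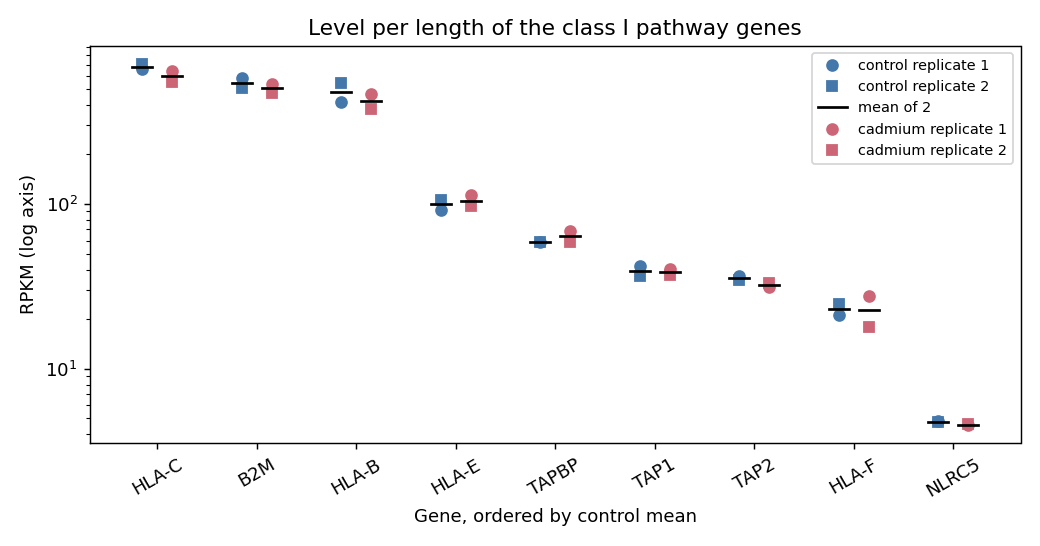
RPKM of the 9 members on a log axis, ordered by control mean, with each library as a point (circles replicate 1, squares replicate 2; blue control, red cadmium) and bars at the mean of 2. HLA-C, B2M and HLA-B lie between 375 and 707 RPKM in all 4 libraries, HLA-F lies between 18.0 and 27.5, and NLRC5 lies near 4.6 to 4.8.

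The classical heavy chain genes were lower on average with cadmium, by amounts the test did not separate from the spread between libraries. Levels across libraries are in CPM, counts normalised for depth and composition (TMM). HLA-C (chr6:31236527-31239913, hg19, minus strand), a ligand of killer-cell receptors as well as a peptide presenter, was at 1196 and 1287 CPM in the controls and 1138 and 988 CPM with cadmium. Both cadmium libraries lay below both controls. Its log2 fold change was -0.22 (SE 0.09, 95% interval -0.43 to -0.02), with an edgeR adjusted p of 0.122 and an unadjusted p of 0.037 in the same fit.

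HLA-B (chr6:31321650-31324989, minus strand), the other classical chain covered, had 752 and 979 CPM in the controls and 813 and 667 CPM with cadmium. The groups overlapped: control replicate 1 lay between the cadmium libraries. The log2 fold change was -0.22 (SE 0.15, interval -0.58 to 0.13, edgeR adjusted p = 0.338). Replicates differed by as much, with control replicate 2 above replicate 1 by 0.38 on the log2 scale and cadmium replicate 2 relative to replicate 1 at -0.29. This was the 1 member whose call turned on a single library. Without control replicate 1 the log2 fold change was -0.40 and the edgeR adjusted p 0.0385, so it was then called lower, and without any 1 of the other libraries it was not called.

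HLA-E (chr6:30457184-30461982, plus strand) did not separate the groups, with 282 and 325 CPM in the controls and 335 and 292 CPM with cadmium. Its log2 fold change was 0.05 (SE 0.10, interval -0.18 to 0.28, edgeR adjusted p = 0.771). HLA-F (chr6:29691118-29695073, plus strand) had 31.2 and 36.3 CPM in the controls and 39.7 and 26.6 CPM with cadmium, so that the cadmium libraries held both the highest and the lowest value. Its log2 fold change was -0.0018 (SE 0.19, interval -0.45 to 0.45, edgeR adjusted p = 0.997). That wide interval came with the widest replicate gap of the 9, -0.58 on the log2 scale between the cadmium libraries. The signs of the HLA-E and HLA-F differences turned when single libraries were left out, so neither has a direction.

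Sequence sharing limits what can be said of single genes, since the way reads shared by several genes were counted is not given in the sources used here. In GENCODE v29 transcripts, 21.0% of the 50-base words of HLA-B, 6.79% of HLA-C, 5.76% of HLA-E, 41.7% of HLA-F, 15.2% of TAP1 and 35.8% of TAP2 also occurred in another gene model, overlapping models at the same locus included. Between members the sharing was small: 2.00% of HLA-B words occurred in HLA-C, and no 100-base word of any of the 8 members with a transcript was found in another member. For B2M and NLRC5 the share was 0% in any gene model. How well this line's own HLA alleles match the hg19 reference was not tested, which also limits comparisons of level between HLA genes.

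A second limit is overlap on the genome, because the use of strand in counting is also not given. HLA-F-AS1, a noncoding RNA from the opposite strand, overlaps the HLA-F row by 695 bases and had counts of 86 and 18 in control libraries against 169 and 91 in cadmium libraries. It rose by 0.97 on the log2 scale (SE 0.26, edgeR adjusted p = 0.0394), at 3.30 and 2.14 CPM against 5.52 and 5.76 CPM, while HLA-F itself did not pass. The call was lost with DESeq2 and without either cadmium library. Reads from the shared bases of the antisense pair cannot be told apart. TAPSAR1 lies opposite TAP1 over 1291 bases with 39 to 147 reads a library, and the microRNA row MIR6891 lies inside HLA-B with 11 to 34 reads, both small beside their partner's counts.

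B2M (chr15:45003686-45010357, plus strand), the light chain that pairs with class I heavy chains, had 660 and 576 CPM in the controls and 592 and 527 CPM with cadmium. Cadmium replicate 1 lay between the controls. Its log2 fold change was -0.14 (SE 0.10, interval -0.36 to 0.08, edgeR adjusted p = 0.332).

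**Figure D2:**
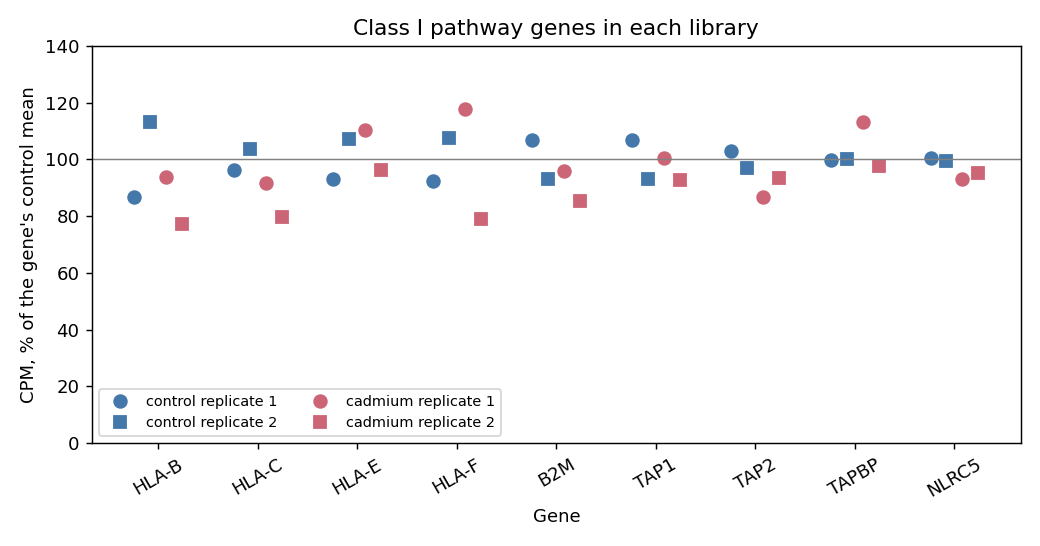
CPM of each member in each library as a percentage of that gene's control mean, which is the horizontal line at 100. Points of both colours mix for HLA-B, HLA-E, HLA-F, B2M, TAP1 and TAPBP, and both cadmium points lie below both control points for HLA-C, TAP2 and NLRC5.

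The transporter and loading genes did not pass the test either. TAP1 (chr6:32812987-32821748, minus strand) was at 141 and 124 CPM in the controls and 133 and 123 CPM with cadmium, with a log2 fold change of -0.05 (SE 0.10, interval -0.27 to 0.17, edgeR adjusted p = 0.754). TAP2 (chr6:32793188-32806600, minus strand) was at 235 and 221 CPM against 198 and 213 CPM, both cadmium libraries below both controls. Its log2 fold change was -0.15 (SE 0.08, interval -0.34 to 0.04, edgeR adjusted p = 0.233). TAPBP (chr6:33271411-33282164, minus strand) had 248 and 249 CPM in the controls and 281 and 243 CPM with cadmium, values on either side of the controls. Its log2 fold change was 0.08 (SE 0.09, interval -0.13 to 0.28, edgeR adjusted p = 0.595).

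NLRC5 (chr16:57050987-57117436, plus strand), the class I transactivator of the NOD-like receptor family, was at 37.1 and 36.6 CPM in the controls and 34.3 and 35.0 CPM with cadmium. Replicates were close and the cadmium libraries lay just below the controls. The log2 fold change was -0.09 (SE 0.10, interval -0.33 to 0.15, edgeR adjusted p = 0.591).

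Across the 9 members the log2 fold change was above 0 for 2 and below 0 for 7. The libraries of the groups did not overlap for 3 members (HLA-C, TAP2 and NLRC5), each lower with cadmium, against 62.1% of all tested genes. The 95% intervals gave the range of differences compatible with the counts, and the largest fold change in either direction inside them ran from 1.21 for TAP1 to 1.49 for HLA-B. A miss of the threshold does not show that levels were equal. In the authors' deposited table the adjusted p of the 9 members ran from 0.146 for HLA-C to 0.976 for HLA-F. There 0 of 9 were under 0.05, while 1981 genes were over that whole table. The log ratios in the authors' deposited table ran from -0.21 for HLA-C to 0.07 for TAPBP.

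**Figure D3:**
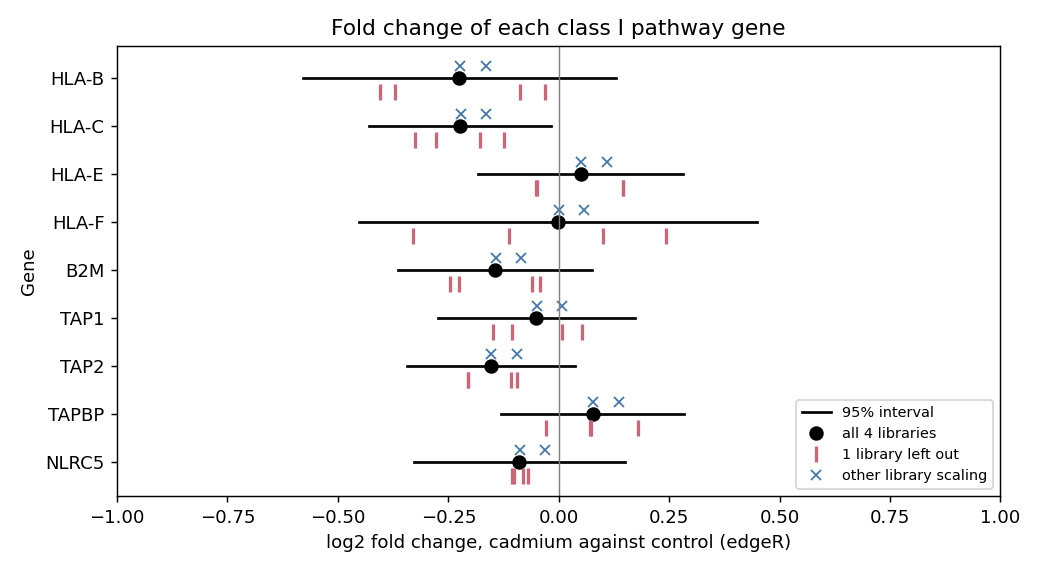
Log2 fold change of each member, cadmium against control, with the 95% interval of the edgeR fit (black), the value with each library left out in turn (red ticks) and with DESeq2 size factors or library size alone as scaling (blue crosses). All intervals but that of HLA-C (-0.43 to -0.02) include 0, and HLA-F has the widest, from -0.45 to 0.45.

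Ratios between partners within a library do not depend on scaling between libraries. The summed RPKM of the 4 heavy chains over B2M was 2.04 and 2.72 in the controls and 2.32 and 2.21 with cadmium, so the cadmium values lay within the control range. HLA-C over HLA-B was 1.58 and 1.30 against 1.39 and 1.47, again within that range. HLA-E over HLA-B was 0.222 and 0.196 in the controls and 0.243 and 0.259 with cadmium, with no overlap. TAP1 over TAP2, whose products pair as a heterodimer, was 1.14 and 1.05 against 1.29 and 1.11. B2M over TAP1 was 13.9 in both controls and 13.3 and 12.8 with cadmium. With 2 libraries against 2 an exact permutation test cannot reach the threshold, so these ratios are descriptions.

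Of the genes for the upstream step, peptide production by the proteasome, some were lower with cadmium. Over all tested genes 8.85% were called higher and 7.66% lower, the shares to set beside this and each later list. Groups did not overlap for 62.1% of tested genes, the share to set beside each gene below with groups apart. Of the 5 genes listed for the immunoproteasome and its activator, whose interferon-induced subunits favour class I ligands, 1 fell, 0 rose and the list's median log2 fold change was -0.30. PSMB10, an immunoproteasome catalytic subunit, was at 55.8 and 64.6 CPM in control against 42.4 and 35.2 CPM, with a log2 fold change of -0.62 (SE 0.13, edgeR adjusted p = 0.0166). The groups were well apart, and the call was lost without cadmium replicate 2, which left 0 of 5 lower. The other members of this list did not pass, among them PSMB8 at -0.30 and PSMB9 at -0.13. PSME2, at -0.31, missed the threshold narrowly (edgeR adjusted p = 0.05001), at 90.5 and 87.3 CPM in control against 73.6 and 70.1 CPM. Without control replicate 2, 2 of 5 were called lower, and with no filter on low counts 3 of 5.

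Of the 3 standard catalytic subunits that the immunoproteasome subunits replace, 2 fell and 0 rose, against 7.66% and 8.85% of all tested genes. Their median was -0.31. PSMB6 had 389 and 428 CPM against 293 and 318 CPM (log2 fold change -0.42, SE 0.09, edgeR adjusted p = 0.0169). PSMB7 had 217 and 235 CPM against 180 and 183 CPM (log2 fold change -0.31, SE 0.08, edgeR adjusted p = 0.0352). Without cadmium replicate 1 none of the 3 was called, and without cadmium replicate 2 only PSMB6 was. Scaling by library size alone, or the replicate block, also ended the PSMB7 call. The RPKM ratio of each immunosubunit to the standard subunit it replaces had no common direction: PSMB8 over PSMB5 was 0.556 and 0.588 against 0.583 and 0.517, PSMB9 over PSMB6 was 0.181 and 0.193 against 0.246 and 0.210, and PSMB10 over PSMB7 was 0.260 and 0.278 against 0.237 and 0.194. The first overlapped between groups, the second was higher with cadmium and the last lower.

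None of the 9 tested genes for peptide trimming and loading chaperones passed, and their median was 0.12. ERAP2, which trims peptide ends in the endoplasmic reticulum, was at 61.3 and 62.2 CPM against 76.2 and 71.7 CPM (log2 fold change 0.26, edgeR adjusted p = 0.0883). HSPA5, the reticulum's main HSP70 chaperone, was at 660 and 653 CPM against 720 and 939 CPM (log2 fold change 0.34, edgeR adjusted p = 0.0939). HSPA5 was called higher without cadmium replicate 1 and with no low-count filter.

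Among 14 tested relatives of the class I chains, 1 rose and 0 fell, against 8.85% and 7.66% of all tested genes. Their median was 0.18. MICB, a stress-induced ligand of the activating receptor NKG2D that binds neither peptide nor B2M, was at 69.5 and 59.2 CPM in the controls and 92.8 and 102 CPM with cadmium. The groups were far apart, with a log2 fold change of 0.59 (SE 0.11, edgeR adjusted p = 0.0127), and the call held under all 12 other settings tried. The list's count was 5 without control replicate 2, and 2 without control replicate 1 or with no low-count filter. The remaining HLA rows of this list did not pass. HLA-G, a nonclassical chain best known from placenta, was at 17.5 and 18.9 CPM against 15.5 and 12.5 CPM (log2 fold change -0.36, edgeR adjusted p = 0.147). The pseudogene rows HLA-H, HLA-J and HLA-L had log2 fold changes of -0.25, 0.79 and 0.24 with edgeR adjusted p of 0.282, 0.140 and 0.275. HLA-H was called lower without control replicate 1, the setting in which HLA-B was.

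The class II pathway, which presents peptides from endosomes and is mostly confined to professional antigen-presenting cells, was measured at low levels, in part with no reads. HLA-DRA, HLA-DRB1, HLA-DQA1 and HLA-DQB1 had 0 reads in all 4 libraries, where 3 reads equal 0.0980 to 0.356 CPM. Of 6 class II genes tested, 2 rose and 0 fell, against 8.85% and 7.66% of all tested genes. Their median was 0.95. HLA-DMA and HLA-DMB encode the chaperone that loads class II peptides. HLA-DMA had 61 and 28 control reads against 204 and 77 cadmium reads (log2 fold change 1.11, SE 0.28, edgeR adjusted p = 0.0335). HLA-DMB had 8 and 2 reads against 53 and 11 (log2 fold change 2.14, SE 0.60, edgeR adjusted p = 0.0447). These calls rest on few reads: neither held without control replicate 1 or without cadmium replicate 1. At equal depth HLA-DMA was not called and HLA-DMB was not tested, limma-voom did not call HLA-DMB, and under DESeq2 0 class II genes were called, HLA-DMB having no adjusted p there. HLA-DPB1 was well above the floor, at 17.7 and 15.2 CPM against 14.0 and 12.5 CPM, and did not pass (log2 fold change -0.32, edgeR adjusted p = 0.179). CD74, the invariant chain, was at 8.87 and 15.6 CPM against 22.0 and 14.7 CPM, with overlapping groups (log2 fold change 0.67, edgeR adjusted p = 0.187). HLA-DPA1, at 2 to 40 reads a library, had a log2 fold change of 1.39 (edgeR adjusted p = 0.104).

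Of 15 regulators known to act on class I promoters, 1 rose and 1 fell, against 8.85% and 7.66% of all tested genes. Their median was -0.10. IRF9, the DNA-binding part of the interferon-activated complex ISGF3, was at 40.7 and 32.1 CPM in control and fell to 22.2 and 22.7 CPM (log2 fold change -0.71, SE 0.14, edgeR adjusted p = 0.0141). IRF2, which binds the same sites as IRF1, was at 29.8 and 32.8 CPM against 38.8 and 44.1 CPM (log2 fold change 0.41, SE 0.12, edgeR adjusted p = 0.0492). For both genes the groups did not overlap, as for 62.1% of all tested genes. Without cadmium replicate 1 none of the 15 was called, and without cadmium replicate 2 IRF9 kept its call and IRF2 lost it. Without control replicate 1 IRF2 lost the call and 2 of 15 were called lower. Without control replicate 2, 4 of 15 were called lower and the list's median was 0.09. The IRF2 call was also lost with the replicate number as a block, with DESeq2 and at equal depth. With no low-count filter 2 of 15 were called lower.

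Of 11 interferon receptor, kinase and feedback genes, 2 rose and 0 fell, against 8.85% and 7.66% of all tested genes. The list's median was 0.020. Both genes that rose encode suppressors of cytokine signalling. SOCS1 was at 2.19 and 2.26 CPM against 5.62 and 3.73 CPM (log2 fold change 1.10, SE 0.29, edgeR adjusted p = 0.0376). SOCS3 was at 89.8 and 80.8 CPM against 126 and 111 CPM (log2 fold change 0.47, SE 0.10, edgeR adjusted p = 0.0189). Neither call held without cadmium replicate 1, and that of SOCS1 was also lost without control replicate 1, with DESeq2 and at equal depth.

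Interferon-stimulated genes outside the class I pathway were mostly lower with cadmium, and some passed. Of 31 tested, 6 fell and 0 rose, against 7.66% and 8.85% of all tested genes. A log2 fold change below 0 was found for 28, and the median was -0.73. OASL, an antiviral 2'-5'-oligoadenylate synthetase relative, was at 11.3 and 7.96 CPM in control and 3.89 and 2.53 CPM in exposed cells (log2 fold change -1.58, SE 0.27, edgeR adjusted p = 0.0104). MX1, an antiviral GTPase, was at 61.7 and 33.9 CPM against 17.6 and 15.3 CPM (log2 fold change -1.56, SE 0.30, edgeR adjusted p = 0.0280). In both genes the groups were apart and the controls themselves differed. XAF1 and IFIT3 fell by 1.42 and 1.06 on the log2 scale (edgeR adjusted p = 0.0421 and 0.0187). MX1, XAF1 and IFIT3 lost their calls when either cadmium library was left out. The XAF1 call was also lost without control replicate 1 and at equal depth, and that of MX1 with no low-count filter.

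The controls were unlike each other in these genes. The summed level of the list was 1977 CPM in control replicate 1, 1340 in control replicate 2, and 1277 and 1144 with cadmium. Without control replicate 1 the list's median was -0.12, with 6 called lower, and without control replicate 2 it was -0.99, with 21 called lower. Leaving out either cadmium library left 2 called lower. For the 9 class I members the summed level was 3583 and 3833 CPM in the controls and 3564 and 3114 CPM with cadmium, and their median stayed between -0.11 and -0.06 with any 1 library left out. The difference between the lists was not tested.

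**Figure D4:**
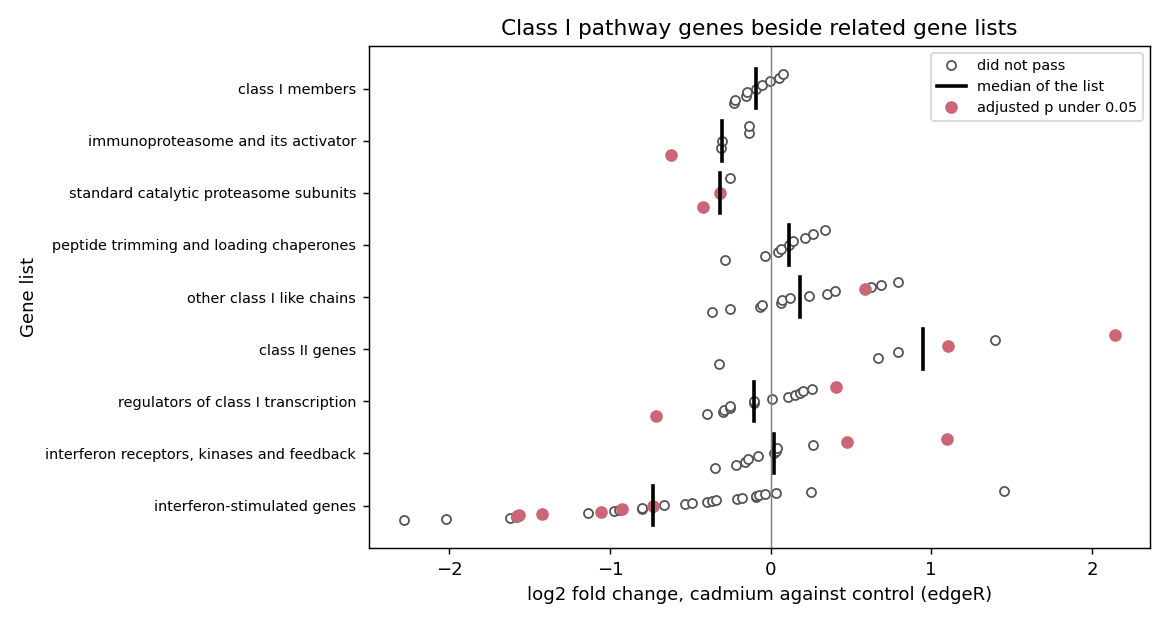
Log2 fold change, cadmium against control, of the genes in each list, with filled points for an adjusted p under 0.05 and a bar at each list's median. The 9 class I members lie between -0.22 and 0.08 with no filled point, and the interferon-stimulated genes have a median of -0.73 with 6 filled points below 0.

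Over the 4 libraries the members' median profile of centred log2 CPM was nearly flat, at 0.05 and 0.03 in the controls and 0.03 and -0.08 with cadmium. The genes with the smallest summed squared distance to it, among those with a mean of at least 5 CPM, were DENND6A, EXT2, SF3A2, MYEF2 and MIER3, at 0.000501 to 0.000930. Of the members, NLRC5 was closest to the median profile (0.0108) and HLA-F farthest (0.132). Some members were less flat than this median. HLA-B was at 0.30 in control replicate 2 and -0.25 in cadmium replicate 2. HLA-F was at 0.26 in cadmium replicate 1 and -0.31 in cadmium replicate 2. NLRC5 was closer to the median profile than 95.7% of the compared genes, HLA-B than 38.7% and HLA-F than 35.2%. The compared genes leave out the members, which set that profile, and its control values are NLRC5's own. Closeness of members to it is therefore partly built in.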

How the data were processed

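RNA-seq was available for 4 libraries, 2 control and 2 cadmium. Per the labels' protocols, TruSeq RNA kits were used on total RNA. STAR 2.4, DESeq2, DESeq and GRCh37 (hg19) are named, without roles, in the submitters' processing notes. Which program counted reads, with what annotation and strand setting, is not given in the sources used here. Per the file headers, each library has whole-number read counts and RPKM per gene, as the authors deposited them. Their deposited comparison table adds group mean RPKM, a log ratio read as log2, and raw and adjusted p-values.

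Counts were fitted with edgeR 4.0.16 (R 4.3.3): filterByExpr, TMM and the robust quasi-likelihood test on group alone. SEs were derived from the F statistic, and 95% intervals use its degrees of freedom. DESeq2 1.42.0 and limma 3.58.1 (voom) were alternatives, beside other scaling, filters, a replicate block, equal depth and leaving out each library. On counts simulated with its own dispersions, the fit recovered known changes larger than those of the members. Recovery of changes as small as theirs was not tested.

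Members and lists were chosen with earlier results of these data known. Named genes were the members, other HLA rows, up to 4 passing genes with the largest change per list (where none passed, the 2 of smallest p), and the 5 nearest patterns. Markers and single genes beyond these were named after their values were seen. Some genes that the rule or a list names are not reported here and were left out of the lists' counts. Coordinates of genes are hg19, and promoter windows are RefSeq GRCh38.p14. HLA-E and NLRC5 promoters and protein sequences were not used here.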

Additional observations from a re-analysis of the deposited data

How the results depend on the processing

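With 2 libraries a group, single libraries moved the counts most. The number of members called was 0 under every other setting except 1 without control replicate 1 (leave-one-out range 0 to 1): there HLA-B had a log2 fold change of -0.40. Calls over all tested genes ranged from 604 to 3768 with 1 library left out, and calls among the listed pathway genes from 5 to 43, against 2255 and 16. The signs of small differences turned. With 1 library left out the log2 fold change ranged from -0.40 to -0.031 for HLA-B, -0.051 to 0.146 for HLA-E, -0.329 to 0.244 for HLA-F, -0.149 to 0.054 for TAP1 and -0.028 to 0.179 for TAPBP. For TAP1 it was 0.0074 with library size alone. For HLA-F it was 0.00020 with DESeq2 size factors, 0.057 with library size alone, 0.038 with a stricter filter (5 CPM in 2 libraries), 0.032 with limma-voom and 0.0056 at equal depth. The cause was not tested. HLA-B, HLA-C, B2M, TAP2 and NLRC5 kept a value below 0 under all 12 other settings. Scaling by library size alone gave 1445 higher and 682 lower calls, 67.9% higher against 53.6%, and moved the median of all genes to 0.06. Pseudocounts of 0.1 and 1 RPKM were added to both group means, which cannot change the direction of their ratio, so they do not test it. The order by counts per kilobase was not run, as no gene length was used here.

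The deviations of same-numbered libraries tended to oppose each other, with a correlation of -0.26 over 10790 genes. Replicate 1 was the deeper library in both groups, so the number also went with depth. With the replicate block edgeR called 1884 genes, 0 members and 17 listed genes. The crossed pairing, added after seeing the data, gave 3022, 0 and 22.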
